A study of Rattus norvegicus with 9 samples.

Results

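The genes that build ribosomes were followed here through injury and rapamycin treatment of the rat kidney. A gene was included when its symbol began with Nop, Utp, Rrp or Nol and a digit, or with Polr1, or was Bop1, Fbl, Ncl, Npm1, Dkc1, Nhp2 or Gar1. The rule itself reads names and no measured value, and it was written with earlier results of these data known. It gave 48 members among the 11235 genes of the authors' FPKM table. By role they were 8 subunits of RNA polymerase I, 3 proteins of box C/D and 3 of box H/ACA small nucleolar ribonucleoproteins, 20 factors of the small ribosomal subunit, 11 factors of the large subunit, and the abundant nucleolar proteins Ncl and Npm1. The remaining member, Nol4l, entered by its name and is not known as a ribosome assembly factor. Dkc1, the pseudouridine synthase of the H/ACA particles, was not among the genes analysed here.

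Ribosomes are assembled in the nucleolus. RNA polymerase I transcribes one long precursor that holds most of the ribosomal RNA. Box C/D particles then guide its methylation and box H/ACA particles its pseudouridylation, and separate sets of factors cut, fold and pack the parts that become the small and the large subunit. The pathway consumes much of a growing cell's energy. The kinase complex mTORC1, which rapamycin inhibits, and the transcription factor MYC are known to promote it. MYC binds the E-box CACGTG in the promoters of many nucleolar genes.

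Kidney RNA was sequenced as poly(A) libraries from 9 samples in 3 groups of 3, all from wild-type Sprague-Dawley rats 6 to 8 weeks old. The I/R + rapamycin group had ischaemia for 45 min by a clamp on the left renal artery, reperfusion (I/R) and rapamycin. By the sample protocols the drug was started 1 day before surgery. The I/R group had the same injury without the drug, and the sham group was operated on without ischaemia. The labels gave 1 or 2 mg/kg per day for rapamycin, by mouth in one place and by intraperitoneal injection in another, 3 or 7 days of reperfusion, and either male rats or both sexes, so dose, route, time and sex are unsettled, and they did not say which kidney was sampled. No label ties a library to an animal of its own, and p-values here cover only the variation among these samples, which may be technical. Messenger RNA of the assembly factors was measured, and neither ribosomal RNA nor ribosomes.

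Total counts ran from 44582251 in I/R + rapamycin 1 to 60538627 in sham 3, and all 48 members passed the filter on low counts, with 178 to 21221 reads per library. The labels named both kidney and renal tubular cells. Proximal tubule markers were abundant, with summed levels of 3610 to 4140 FPKM in I/R + rapamycin, 3660 to 4470 in I/R and 3770 to 5580 in sham, and all 6 podocyte and all 7 endothelial markers looked for were also listed, so the libraries held more than tubule. Summed levels of the 6 podocyte markers had a low, a median and a high of 94, 101 and 143 FPKM in I/R + rapamycin, 103, 120 and 146 FPKM in I/R, and 161, 166 and 175 FPKM in sham. The 8 collecting duct markers summed to 342, 354 and 430 FPKM in I/R + rapamycin, 336, 359 and 361 FPKM in I/R, and 407, 407 and 413 FPKM in sham, with every I/R library below every sham library, and 7 of the 8 had fitted values below 0 in I/R over sham. Of 6 erythrocyte markers, 3 were in the table, and their sums were 23.8, 36.3 and 153 FPKM in I/R + rapamycin, 382, 946 and 997 FPKM in I/R, and 70.7, 94.7 and 755 FPKM in sham. For 6 listed of 8 immediate early genes the sums were 140, 141 and 175 FPKM in I/R + rapamycin, 151, 580 and 672 FPKM in I/R, and 211, 410 and 789 FPKM in sham. The part of these differences in the results on ribosome assembly genes was not tested. In whole tissue, fewer cells of a type and less RNA per cell cannot be told apart.

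The E-box was looked for at the starts of the members because it is the known MYC site of this gene class. RefSeq promoter sequences (build GRCr8), each from 250 bases before to 50 bases after a gene's start, were matched for 46 of the 48 members by gene ID. CACGTG, which reads the same on both strands, was present in 14 of 46 windows (30.4%), against 832 of the 8451 windows (9.84%) of FPKM-table genes that matched and 1826 of 27457 windows (6.65%) in the whole table. The E-box nearest the start lay before it in 6 members, after it in 7, and across it in 1, Nol6. In the 250 bases before the start alone the share was 15.2% of members, against 8.48% of FPKM-table genes and 5.79% of all. The GC-rich motif GGCGGG was searched on both strands, and the GC box GGGCGG was not searched for. GGCGGG was in 54.3% of members before the start, against 57.6% of FPKM-table genes and 31.1% of all. These matches are letters in a window and not shown binding. These 14 E-boxes are given with 10 bases on each side, in the gene's own direction, 5′ to 3′, with the E-box in capitals. The window of Nop2 stops at the end of the table's sequence.
Fbl (chr1:92597418-92597443, plus strand): cgcttttttcCACGTGtgaaagcctg
Nol11 (chr10:92641513-92641538, minus strand): cggtcattggCACGTGgtctaggctc
Nol6 (chr5:61066291-61066316, minus strand): cgtttaggccCACGTGgggagctacg
Nop2 (chr4:159618994-159619015, plus strand): tccccaagtgCACGTGgagcgg
Polr1g (chr1:88138761-88138786, minus strand): ccctgggctcCACGTGgtgggcagcg
Rrp1 (chr20:10260554-10260579, plus strand): gcgtgacgcaCACGTGtcgtcactcg
Rrp12 (chr1:250655300-250655325, minus strand): tgagaatacaCACGTGggttctgctg
Rrp15 (chr13:100830771-100830796, minus strand): gttcaggactCACGTGtgaaccccgg
Rrp7a (chr7:116153085-116153110, minus strand): gcctgtgcacCACGTGtatactgcgc
Rrp8 (chr1:169500445-169500470, minus strand): acgcgcgctaCACGTGggccagagcg
Utp18 (chr10:79335739-79335764, minus strand): agtggggctcCACGTGaacgtctgcg
Utp20 (chr7:25102961-25102986, minus strand): gcactagctaCACGTGagaaaaagca
Utp25 (chr13:107180336-107180361, minus strand): ccggcgtaccCACGTGcgacaacttc
Utp4 (chr19:51702206-51702231, plus strand): cgcacgcgcgCACGTGggaccggggc

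Levels spanned a wide range between members. In FPKM, which corrects for length, the mean over the 9 libraries ran from 64.9 for Ncl (nucleolin) to 1.56 for Rrp8, a methyltransferase that modifies large-subunit ribosomal RNA. Beside Ncl the highest were Nop10 at 64.0 FPKM, a small H/ACA protein, Npm1 (nucleophosmin) at 55.1 FPKM and Nop53, a large-subunit factor, at 51.9 FPKM. Of the 48 members, 8 averaged at least 20 FPKM, 24 averaged 5 to 20 FPKM and 16 less than 5 FPKM. The median member mean was 6.35 FPKM, against 8.42 FPKM over all genes of the table. Members were about as steady as other listed genes: the coefficient of variation over the 9 libraries had a median of 10.8% for members and 12.8% for all genes, from 5.14% for Utp6 to 28.3% for Rrp1b.

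**Figure D1:**
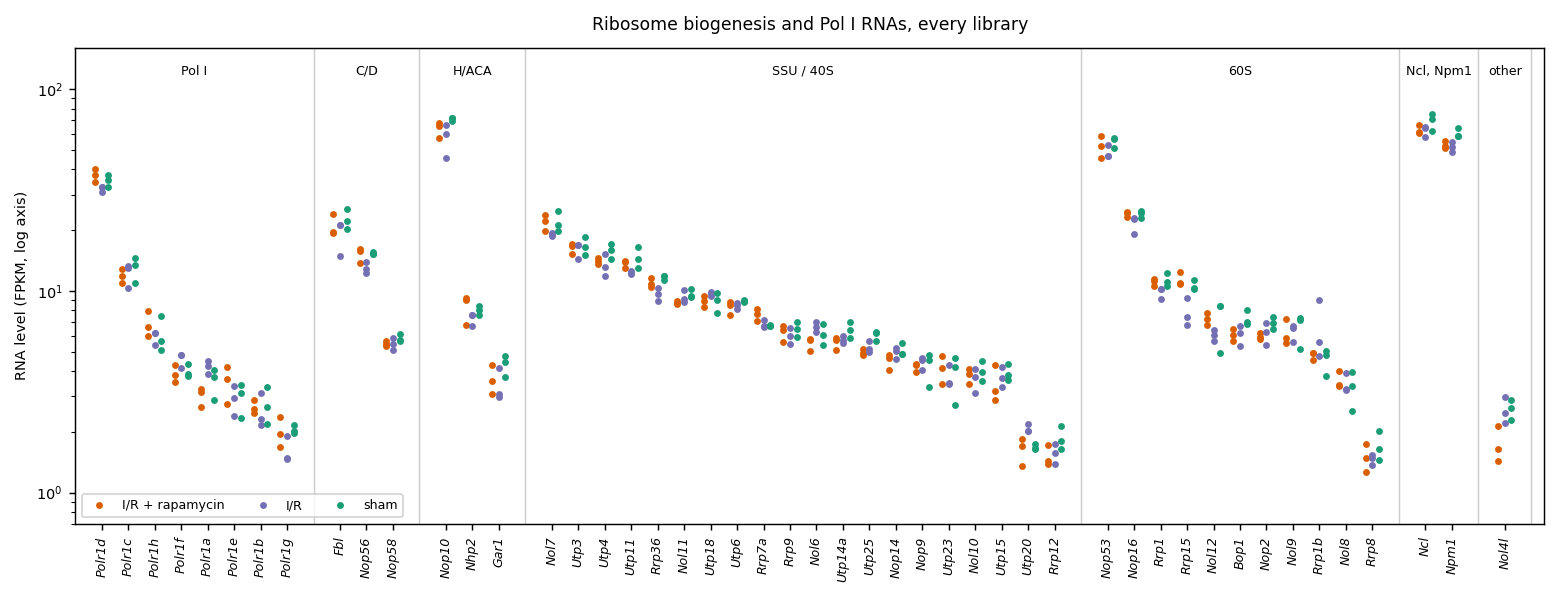
FPKM of each of the 48 members in every library, on a log axis, with members grouped by role and colours and markers standing for I/R + rapamycin, I/R and sham. Members differ from each other from 1.56 to 64.9 FPKM on average, while the 9 libraries of one member lie close together.

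Partners within a complex were not at equal levels. Polr1a and Polr1b encode the catalytic core of RNA polymerase I, and the ratio of Polr1a to Polr1b in FPKM had a median of 1.28 over the 9 libraries, from 1.02 to 1.94. Polr1c and Polr1d encode the pair of subunits that RNA polymerase I shares with RNA polymerase III. Polr1c stood at a median of 4.92 times Polr1b (3.31 to 5.98) and Polr1d at 14.2 times Polr1b (9.85 to 16.2). The subunits particular to RNA polymerase I were lower than both shared ones, with means of 6.28 FPKM for Polr1h, 4.16 for Polr1f, 3.59 for Polr1a, 3.13 for Polr1e, 2.63 for Polr1b and 1.89 for Polr1g.

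Among the H/ACA proteins, Nop10 was at 18.4 times Gar1 (11.0 to 22.4) and at 8.29 times Nhp2 (6.87 to 9.51), as medians over the 9 libraries with their range. Among the C/D proteins, Fbl (fibrillarin, the methyltransferase) was at 3.63 times Nop58 (2.92 to 4.41) and Nop56 at 2.71 times Nop58 (2.11 to 3.03). The order within each of these particles was the same in every library. Such ratios rest on the transcript lengths used for FPKM, and Npm1 has processed pseudogenes in mammalian genomes, so that its level depends on how reads of near-identical copies were assigned, which is not given in the sources used here.

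I/R + rapamycin was compared with I/R to ask what the drug, started before surgery, changed in injured kidneys. No member passed the test (edgeR quasi-likelihood, Benjamini-Hochberg adjusted p under 0.05), where 22 of 17335 genes did, 0.127% of those tested. At an unadjusted p under 0.05 there were 7 members higher and 3 lower in I/R + rapamycin, together 20.8% of members, against 19.6% of FPKM-table genes, with 9.82% higher and 9.74% lower. The share is near the background, and the count of 10 came to 6 without I/R + rapamycin 1, without I/R + rapamycin 2, without I/R 1 or without I/R 3. DESeq2 called 1 member, Rrp15, where it called 4.08% of all genes.

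Fitted log2 fold changes of I/R + rapamycin over I/R lay above 0 for 36 of 48 members with a median of 0.11, against 54.4% above 0 and a median of 0.03 over FPKM-table genes. For 47 of 48 members the fitted change was less than 1.5-fold either way. The 95% interval stayed within 2-fold for all 48 members and within 1.5-fold for 38. In 10 members all I/R + rapamycin libraries lay above all I/R libraries, and in 4 all lay below, against 14.9% and 13.1% of FPKM-table genes. Without I/R 1 the median was 0.04, with 31 members above 0.

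**Figure D2:**
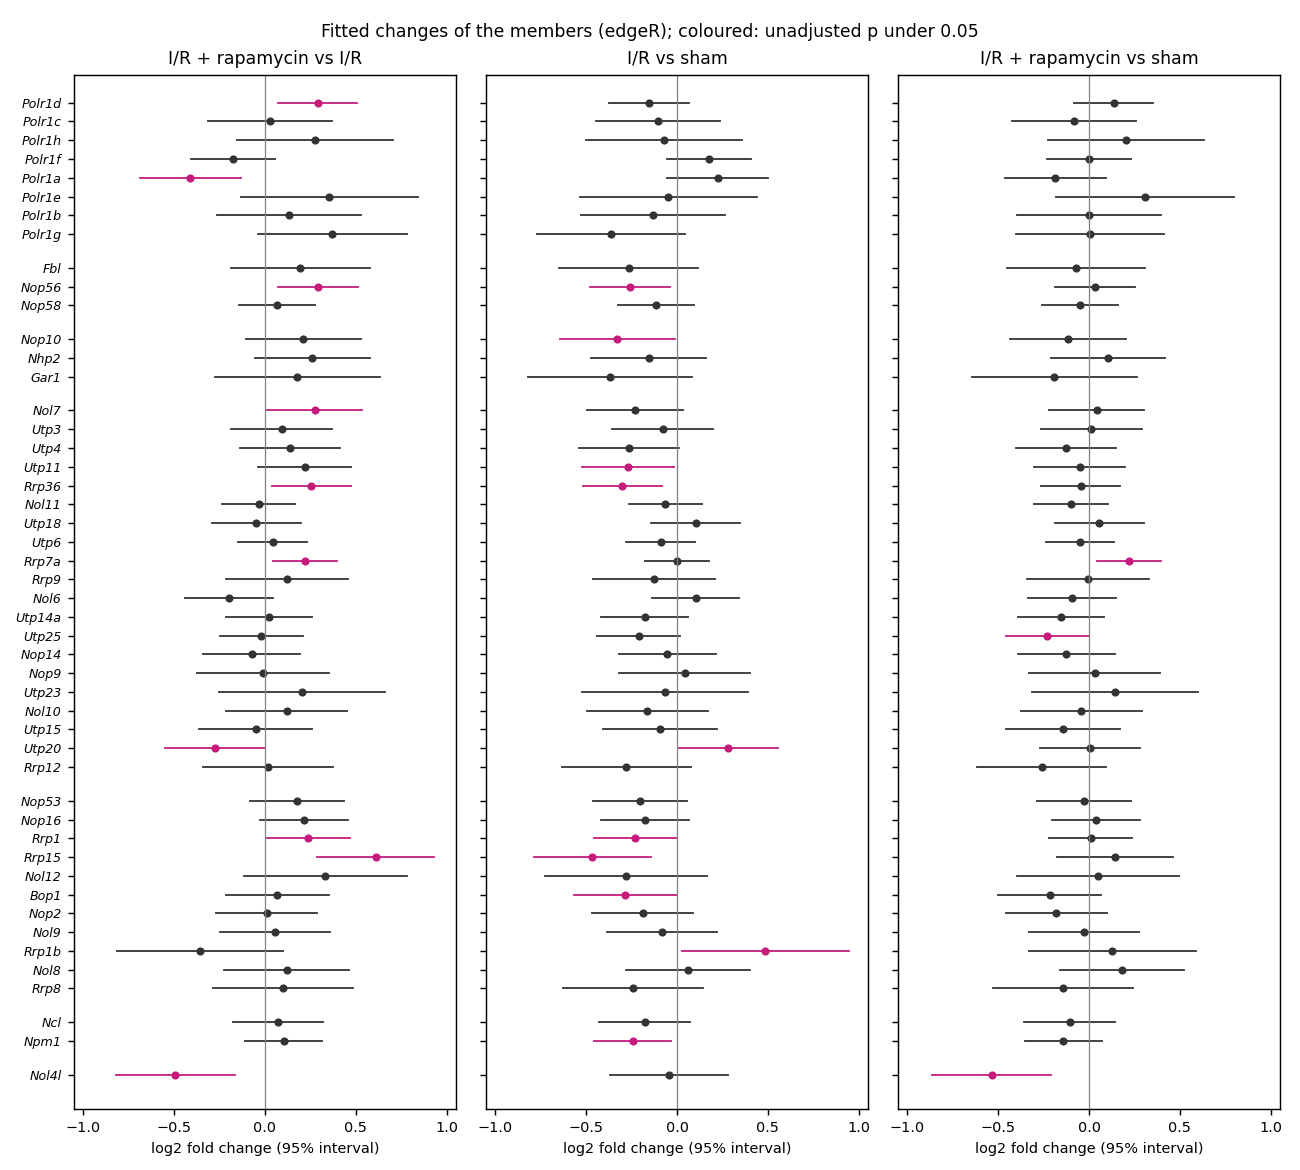
Log2 fold change of every member with its 95% interval from the edgeR fit, in panels for I/R + rapamycin over I/R, I/R over sham and I/R + rapamycin over sham, with members grouped by role and in colour where the unadjusted p was under 0.05. Most points lie right of 0 in the panel of I/R + rapamycin over I/R and left of 0 in the panel of I/R over sham, and both panels use the same I/R libraries.

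Among RNA polymerase I subunits, 6 of 8 lay above 0 in I/R + rapamycin against I/R, with a median log2 fold change of 0.20, and the subunits did not all lie on one side. In CPM, the read count scaled to the size of the library, Polr1a, the largest catalytic subunit, had 18.6, 22.2 and 21.9 CPM in I/R + rapamycin and 27.2, 26.8 and 29.4 CPM in I/R. The groups did not overlap. The log2 fold change of this gene was -0.41 (SE 0.13, adjusted p = 0.174). Polr1d had 95.1, 88.8 and 78.7 CPM in I/R + rapamycin and 66.6, 76.1 and 72.0 CPM in I/R, again without overlap and in the other direction. This came to 0.29 on the log2 scale (SE 0.099, adjusted p = 0.209).

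The other fixed subunits overlapped between these groups. Polr1b, which with Polr1a forms the catalytic cleft, had 11.5, 11.0 and 12.2 CPM in I/R + rapamycin and 12.6, 9.50 and 9.56 CPM in I/R. Polr1c had 26.2, 22.6 and 23.6 CPM in I/R + rapamycin and 19.3, 26.3 and 25.4 CPM in I/R. For Polr1b, 1 I/R library lay above the treated ones and 2 below, and for Polr1c, I/R 1 was the lowest of the 6.

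All 3 C/D proteins had fitted values above 0, with a median of 0.20. Nop56, a scaffold protein of the C/D particle, had 34.9, 36.3 and 29.5 CPM in I/R + rapamycin and 28.3, 28.4 and 25.6 CPM in I/R, with no overlap. The fitted change was 0.29 on the log2 scale (SE 0.10, adjusted p = 0.208). Fbl had 33.2, 27.0 and 26.1 CPM in I/R + rapamycin and 18.9, 29.1 and 27.4 CPM in I/R, so that only I/R 1 lay outside the treated range on the low side. Nop58, the partner of Nop56, had 30.6, 30.3 and 30.4 CPM in I/R + rapamycin and 26.3, 30.1 and 30.7 CPM in I/R.

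The 3 H/ACA proteins had a median of 0.21 and overlapped in each case. Nop10 had 67.5, 66.4 and 54.9 CPM in I/R + rapamycin and 42.0, 65.5 and 55.6 CPM in I/R. Nhp2, an RNA-binding core protein of the particle, had 28.6, 28.2 and 20.3 CPM in I/R + rapamycin and 19.0, 23.3 and 22.0 CPM in I/R. Gar1, another core protein, had 5.10, 6.13 and 4.25 CPM in I/R + rapamycin and 5.43, 4.17 and 4.08 CPM in I/R. The lowest I/R library was I/R 1 for Nop10 and Nhp2 and I/R 3 for Gar1.

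Of the 20 small-subunit factors, 12 lay above 0, with a median of 0.03. Rrp7a, a component of the small subunit processome, had 42.9, 46.9 and 47.6 CPM in I/R + rapamycin and 40.2, 39.8 and 37.9 CPM in I/R. The log2 fold change of this gene was 0.22 (SE 0.080, adjusted p = 0.231). Rrp36, which acts in early cleavage of the precursor, had 20.8, 21.5 and 22.1 CPM in I/R + rapamycin and 16.2, 18.8 and 19.1 CPM in I/R. This gave 0.25 on the log2 scale (SE 0.099, adjusted p = 0.253). Neither gene's groups overlapped. Nol7 was also higher and Utp20 lower at an unadjusted p under 0.05.

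Of the 11 large-subunit factors, 10 lay above 0, with a median of 0.12. Rrp15, a nucleolar factor of early large-subunit assembly, had the largest fitted change of all 48 members. It had 16.6, 16.9 and 18.4 CPM in I/R + rapamycin, 10.4, 13.9 and 9.70 CPM in I/R and 14.6, 17.2 and 15.3 CPM in sham. Every I/R library lay below every library of the other groups. The log2 fold change of I/R + rapamycin over I/R was 0.61 (SE 0.15, 95% interval 0.29 to 0.93), with an edgeR adjusted p of 0.125. DESeq2 gave an adjusted p of 0.0116, and over all alternatives the adjusted p ran from 0.0116 to 0.366, so the call depends on the tool. Rrp1, another large-subunit factor, was higher at an unadjusted p under 0.05. Rrp1b, its paralogue, had 20.5, 22.5 and 21.5 CPM in I/R + rapamycin and 19.6, 24.8 and 38.1 CPM in I/R, and its log2 fold change of -0.36 came to -0.05 without I/R 3.

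The abundant nucleolar proteins overlapped between these groups. Ncl had 323, 297 and 288 CPM in I/R + rapamycin and 260, 308 and 296 CPM in I/R. Npm1 had 214, 199 and 194 CPM in I/R + rapamycin and 172, 196 and 196 CPM in I/R. In both, I/R 1 was the lowest library. Nol4l had 14.4, 12.7 and 18.1 CPM in I/R + rapamycin and 24.0, 19.1 and 20.4 CPM in I/R. This gave -0.49 on the log2 scale (SE 0.15, adjusted p = 0.169).

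**Figure D3:**
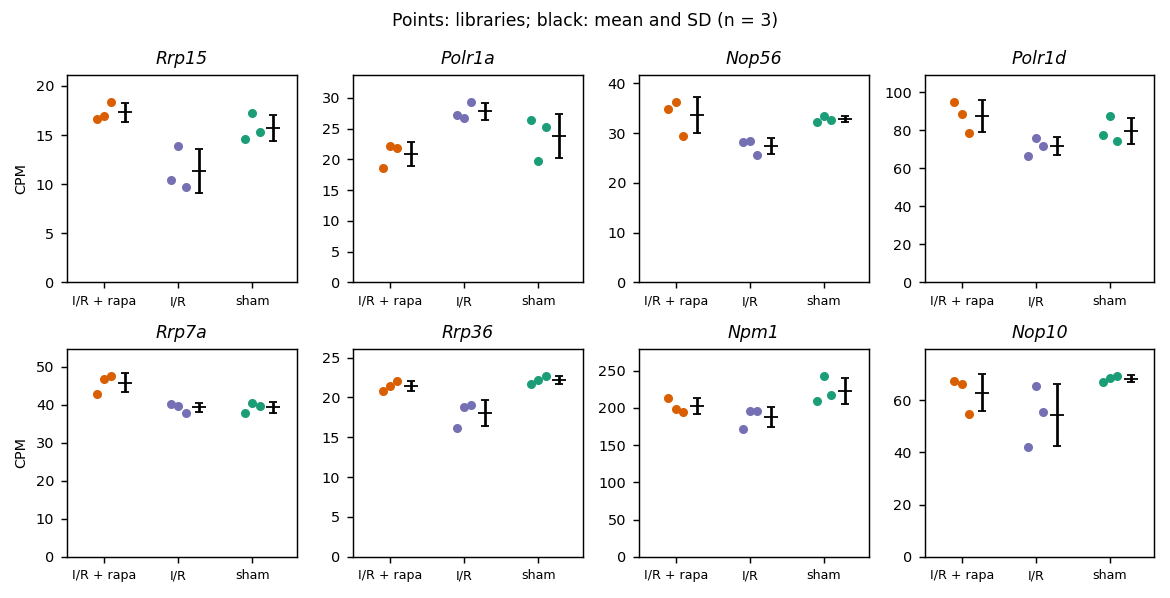
CPM by library for 8 members chosen among those with small p in the comparisons that involve I/R. I/R + rapamycin is left, I/R in the middle and sham right, with the mean and SD of each group in black. Nol4l, Utp11, Rrp1b, Utp20, Rrp1, Nol7 and Bop1 also had an unadjusted edgeR p under 0.05 in I/R + rapamycin over I/R or I/R over sham and are not drawn. Of these, Rrp1b and Utp20 had fitted values higher in I/R than in sham. Rrp15 is at 9.70 to 13.9 CPM in I/R and above that range in the other groups, and Polr1a is at 26.8 to 29.4 CPM in I/R, above all I/R + rapamycin libraries.

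Sequences just before the start are given for Rrp15, Nop56, Polr1a and Polr1d, which among the members known to act in ribosome assembly had the smallest p in I/R + rapamycin against I/R. Nol4l, which is not known to act there, had a smaller p than all but Rrp15 and is not shown. They are from RefSeq on GRCr8, 250 bases each, written 5′ to 3′ in the gene's own direction and ending at the base before the start. Capitals mark the GC-rich motif GGCGGG or its reverse complement CCCGCC, and the GC box GGGCGG is not marked. Polr1d held 2 copies of the marked motif, 160 and 142 bases before its start, and Nop56 held 1, 110 bases before its start. Rrp15 and Polr1a held no copy of the marked motif in these bases, and no E-box lay in any of the 4 sequences. The E-box of Rrp15 among the 14 above begins at base 27 of the transcribed side, counting the start as base 1. GC content was 57.6% for Rrp15, 62.0% for Nop56, 47.6% for Polr1a and 66.8% for Polr1d, against a median of 58.0% over members.
Rrp15 (chr13:100830813-100831062, minus strand): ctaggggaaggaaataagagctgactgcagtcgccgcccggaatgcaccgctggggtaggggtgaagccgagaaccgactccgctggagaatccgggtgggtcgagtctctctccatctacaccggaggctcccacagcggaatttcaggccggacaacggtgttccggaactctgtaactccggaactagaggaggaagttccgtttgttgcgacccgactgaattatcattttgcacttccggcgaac
Nop56 (chr3:137929929-137930178, plus strand): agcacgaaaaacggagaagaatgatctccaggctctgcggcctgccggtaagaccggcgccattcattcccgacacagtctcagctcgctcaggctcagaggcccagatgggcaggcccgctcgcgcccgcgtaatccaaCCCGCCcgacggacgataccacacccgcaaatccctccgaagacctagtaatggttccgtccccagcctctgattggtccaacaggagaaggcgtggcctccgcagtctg
Polr1a (chr4:105508055-105508304, plus strand): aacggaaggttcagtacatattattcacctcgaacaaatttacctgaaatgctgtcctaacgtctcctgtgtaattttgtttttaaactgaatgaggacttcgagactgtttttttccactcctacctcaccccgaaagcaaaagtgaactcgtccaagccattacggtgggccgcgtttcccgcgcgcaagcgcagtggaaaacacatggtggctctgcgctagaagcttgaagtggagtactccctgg
Polr1d (chr12:13118070-13118319, minus strand): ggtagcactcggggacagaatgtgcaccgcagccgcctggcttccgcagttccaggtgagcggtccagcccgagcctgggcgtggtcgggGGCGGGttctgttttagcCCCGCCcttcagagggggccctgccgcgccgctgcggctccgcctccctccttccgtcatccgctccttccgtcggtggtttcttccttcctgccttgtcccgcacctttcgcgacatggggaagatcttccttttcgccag

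I/R was compared with sham to ask what the injury changed. No member passed the edgeR test, where 10 of 17335 genes did (0.0577%), and DESeq2 called no member and 1.38% of genes. At an unadjusted p under 0.05, 2 members were higher and 8 lower in I/R, together 20.8% of members. Among FPKM-table genes 10.6% passed that level, 4.99% higher and 5.64% lower. Leaving out sham 2 brought the count of 10 members to 3, and leaving out I/R 1 or I/R 3 brought it to 5 in either case. Leaving out I/R + rapamycin 1 or I/R + rapamycin 2, which enter only through the filter, library scaling and shared spread, brought it to 6. Fitted values were below 0 for 40 members and above 0 for 8, with a median of -0.16, against 47.7% above 0 and a median of -0.01 over FPKM-table genes. All 48 fitted changes were within 1.5-fold, and all 48 intervals were within 2-fold. In 3 members all I/R libraries lay above all sham libraries and in 9 below them, against 7.32% and 8.27% of FPKM-table genes. This comparison and that of I/R + rapamycin with I/R share the I/R libraries, so opposite signs in the 2 are not separate observations.

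By role the median log2 fold change of I/R over sham was -0.09 for RNA polymerase I subunits, with 2 of 8 above 0. It was -0.26 for C/D proteins and -0.33 for H/ACA proteins, with none of 3 above 0 in each. Small-subunit factors had a median of -0.09, with 4 of 20 above 0, and large-subunit factors about -0.2, with 2 of 11 above 0. The groups of 3 or fewer genes rest on few transcripts and no test was made of them.

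The smallest p in I/R against sham was that of Rrp15, whose values are given above (log2 fold change -0.47, SE 0.15, adjusted p = 0.352). Rrp36 had 16.2, 18.8 and 19.1 CPM in I/R and 21.7, 22.2 and 22.7 CPM in sham (log2 fold change -0.30, SE 0.099, adjusted p = 0.381). Nop56 had 28.3, 28.4 and 25.6 CPM in I/R and 32.3, 33.5 and 32.7 CPM in sham (log2 fold change -0.26, SE 0.10, adjusted p = 0.453). For all 3 genes every I/R library lay below every sham library.

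Npm1, a histone chaperone of the nucleolus, had 172, 196 and 196 CPM in I/R and 209, 243 and 217 CPM in sham. This came to -0.25 on the log2 scale (SE 0.096, adjusted p = 0.464). Nop10 had 42.0, 65.5 and 55.6 CPM in I/R and 66.8, 68.6 and 69.3 CPM in sham, where I/R 1 was far lower than the rest. The fitted change was -0.33 on the log2 scale (SE 0.14, adjusted p = 0.519). Bop1, part of a large-subunit complex with Pes1 and Wdr12, had 15.8, 19.7 and 20.2 CPM in I/R and 20.5, 22.4 and 24.9 CPM in sham. These 3 genes were lower in I/R without overlap.

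The 12 members without overlap between I/R and sham also held Utp6, Utp25 and Polr1g, lower in I/R, and Polr1f and Utp20, higher in I/R. The next members, by contrast, overlapped. Utp11 of the small subunit processome had 26.5, 29.5 and 27.3 CPM in I/R and 28.8, 38.9 and 32.9 CPM in sham (log2 fold change -0.27, SE 0.11, adjusted p = 0.503). Rrp1b had 19.6, 24.8 and 38.1 CPM in I/R and 20.2, 17.0 and 21.8 CPM in sham. Its log2 fold change of 0.49 (SE 0.21, adjusted p = 0.508) came to 0.17 without I/R 3, so that 1 library carried most of it. Ncl had 260, 308 and 296 CPM in I/R and 282, 343 and 353 CPM in sham, and Fbl had 18.9, 29.1 and 27.4 CPM in I/R and 26.2, 34.9 and 29.7 CPM in sham. Nop58 had 26.3, 30.1 and 30.7 CPM in I/R and 29.8, 34.0 and 30.6 CPM in sham.

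Among the polymerase subunits, Polr1a had 27.2, 26.8 and 29.4 CPM in I/R and 26.4, 19.8 and 25.2 CPM in sham, and was higher in I/R without overlap. Polr1d had 66.6, 76.1 and 72.0 CPM in I/R and 77.4, 87.5 and 74.2 CPM in sham. Polr1b had 12.6, 9.50 and 9.56 CPM in I/R and 8.97, 11.6 and 14.1 CPM in sham. Polr1c had 19.3, 26.3 and 25.4 CPM in I/R and 20.7, 29.3 and 26.5 CPM in sham. The last 3 overlapped between groups. Of the remaining H/ACA proteins, Nhp2 had 19.0, 23.3 and 22.0 CPM in I/R and 23.2, 25.8 and 22.7 CPM in sham, and Gar1 had 5.43, 4.17 and 4.08 CPM in I/R and 4.95, 6.67 and 6.05 CPM in sham.

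For members, I/R + rapamycin against sham gave the smallest differences of the 3 comparisons by the median size of the fitted changes. On the log2 scale it was 0.102, against 0.176 for I/R + rapamycin over I/R and 0.177 for I/R over sham. Over FPKM-table genes the same sizes were 0.138, 0.162 and 0.125, so that I/R over sham was smallest there. No member passed the edgeR test, where 27 of 17335 genes did (0.156%). At an unadjusted p under 0.05, 1 member was higher and 2 were lower, together 6.25%, against 15.1% of FPKM-table genes, with 7.16% higher and 7.91% lower, and the count of 3 came to 1 without I/R + rapamycin 2 or without sham 1. Fitted values were above 0 for 19 members and below it for 29, with a median of -0.04 against 0.01 over FPKM-table genes. The median was -0.10 without sham 1 and 0.01 without sham 2. All 48 fitted changes were within 1.5-fold, and 41 of the 48 intervals were. In 1 member the groups did not overlap with I/R + rapamycin higher and in 3 with it lower, against 10.3% and 9.63% of FPKM-table genes.

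Rrp7a was the member higher in I/R + rapamycin, with 42.9, 46.9 and 47.6 CPM there and 37.8, 40.5 and 39.8 CPM in sham (log2 fold change 0.22, SE 0.080, adjusted p = 0.269). Utp25, a processome factor, had 14.7, 15.9 and 14.6 CPM in I/R + rapamycin and 17.7, 17.1 and 18.4 CPM in sham (log2 fold change -0.23, SE 0.10, adjusted p = 0.354). Nol4l had 14.4, 12.7 and 18.1 CPM in I/R + rapamycin and 23.5, 19.9 and 22.2 CPM in sham. Its log2 fold change was -0.54 (SE 0.15), with an edgeR adjusted p of 0.178. DESeq2 gave 0.0401 and called 3.31% of all genes, and the adjusted p ran from 0.0401 to 0.463 over all alternatives.

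Rrp12, known from yeast for the export of both subunits, had 7.25, 7.48 and 8.65 CPM in I/R + rapamycin and 8.01, 9.34 and 10.7 CPM in sham. Bop1 had 20.9, 19.8 and 17.7 CPM in I/R + rapamycin and 20.5, 22.4 and 24.9 CPM in sham. Npm1 had 214, 199 and 194 CPM in I/R + rapamycin and 209, 243 and 217 CPM in sham. In each of the 3 genes the groups overlapped in at least 1 library.

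Libraries of one group differed in the level of the members as a whole. Summed FPKM of the 48 members was 616, 593 and 578 in I/R + rapamycin, 528, 578 and 588 in I/R and 607, 654 and 637 in sham. The median deviation of members from their own mean over the 9 libraries was 0.04, 0.03 and -0.03 in I/R + rapamycin, -0.20, -0.02 and -0.03 in I/R and -0.03, 0.14 and 0.09 in sham, on the log2 scale. I/R 1 and sham 2 stood at the ends, with 11 of 48 members above their mean in I/R 1 and 41 in sham 2. Pooled within groups, the SD of this median was 0.081.

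**Figure D4:**
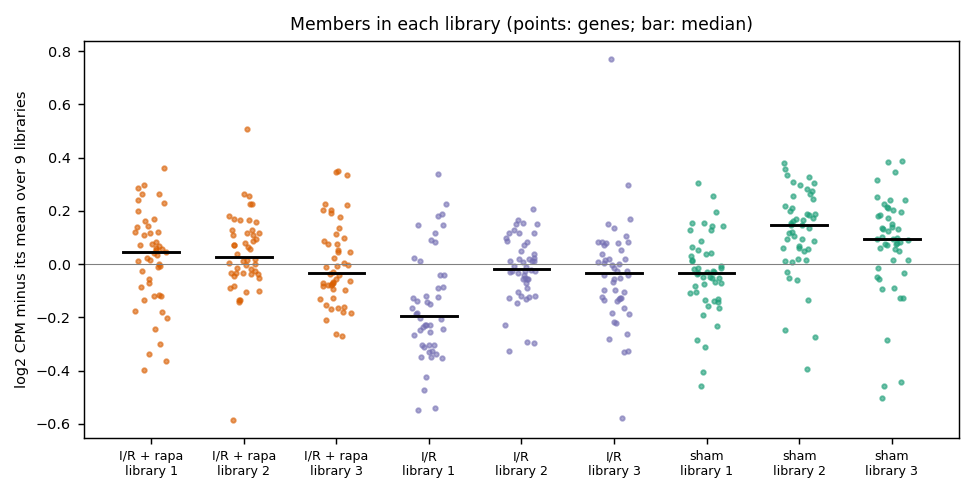
Each library's median log2 deviation of the 48 members from their mean over the 9 libraries, drawn as a bar over the points of single members, I/R + rapamycin left, I/R in the middle and sham right. I/R 1 is lowest at -0.20 and sham 2 highest at 0.14, and the other 7 libraries lie between -0.03 and 0.09.

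Transcript length moved with these values. Length was taken from each gene's counts per library size divided by its FPKM, with a median of 3022 bases for members and 3203 for FPKM-table genes. Across the 48 members the Spearman correlation of length with the log2 fold change was -0.66 for I/R + rapamycin over I/R, 0.55 for I/R over sham and -0.25 for I/R + rapamycin over sham. Over 11232 FPKM-table genes it was -0.48, 0.30 and -0.26 for the same comparisons. Genes of one fit share libraries and normalization and are not replicates. In single libraries, the correlation of length with the deviation of FPKM-table genes from their means was -0.45, -0.30 and -0.08 in I/R + rapamycin, 0.44, 0.12 and 0.25 in I/R and 0.20, -0.30 and 0.13 in sham.

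**Figure D5:**
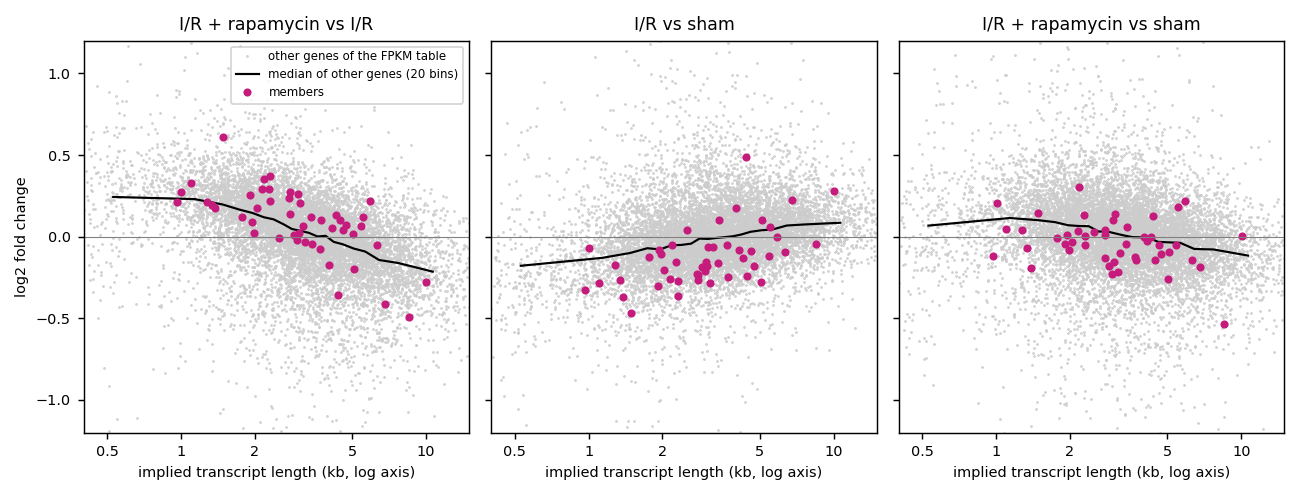
Log2 fold change against implied transcript length on a log axis for the 48 members, over the other FPKM-table genes in grey with their running median as a line, in a panel for each comparison. Short members lie higher in I/R + rapamycin over I/R and lower in I/R over sham, with Spearman correlations over members of -0.66 and 0.55.

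The shift was larger among the 24 shorter members. In I/R + rapamycin over I/R, 22 of the 24 shorter members lay above 0 with a median of 0.22, and 14 of the 24 longer ones with a median of 0.03. All shorter FPKM-table genes had a median of 0.14 and all longer ones -0.06. In I/R over sham, 1 of the shorter and 7 of the longer members lay above 0, with medians of -0.22 and -0.07. All shorter FPKM-table genes had a median of -0.07 there and all longer ones 0.03.

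With each library's length trend removed, 29 members lay above 0 in I/R + rapamycin over I/R with a median of 0.07, against 50.1% above 0 and a median of 0 over FPKM-table genes. In I/R over sham 10 members lay above 0 with a median of -0.14, against 50% and 0. Members with an unadjusted p under 0.05 numbered 5 in I/R + rapamycin against I/R, where 14.4% of FPKM-table genes passed that level in the same fit, 7 in I/R against sham (10.5% of genes) and 3 in I/R + rapamycin against sham (15.3% of genes). None passed the adjusted threshold. After removal Rrp15 was at 0.43 on the log2 scale (adjusted p = 0.184) in I/R + rapamycin over I/R, Polr1a -0.28, Polr1d 0.18, Nop56 0.17 and Rrp36 0.12. Rrp7a had 0.32 (adjusted p = 0.115), larger than the 0.22 without removal. The value after removal rests on an implied length of 5883 bases for Rrp7a, which was not checked. Nop10 came to -0.02. What set the length trend was not tested.

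Other genes of the pathway came from a list of 104 that does not overlap the name rule. Of these, 101 were in the FPKM table, and none passed the edgeR test in any of the 3 comparisons. In I/R + rapamycin over I/R, 75 (74.3%) lay above 0 with a median of 0.09, against 54.4% and 0.03 over FPKM-table genes. At an unadjusted p under 0.05 there were 10 higher and 0 lower, where FPKM-table genes had 9.82% higher and 9.74% lower. In I/R over sham, 15 (14.9%) lay above 0 with a median of -0.10, against 47.7% and -0.01 over FPKM-table genes. At that level 0 were higher and 8 lower, against 4.99% and 5.64% of FPKM-table genes. In I/R + rapamycin over sham, 44 (43.6%) lay above 0 with a median of -0.02, against 51.6% and 0.01 over FPKM-table genes. At that level 3 were higher and 4 lower, against 7.16% and 7.91%. The part of transcript length in the values of this list was not tested.

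Rsl1d1, a nucleolar protein of large-subunit assembly, had a log2 fold change of 0.33 in I/R + rapamycin over I/R and a DESeq2 adjusted p of 0.0493, the only call by that tool in this list and comparison. Ebna1bp2 was at 0.38, Fcf1 at 0.38 and Exosc2, of the RNA exosome, at 0.46 in the same comparison. In I/R over sham, Exosc2 was at -0.47, Ebna1bp2 at -0.38, Esf1 at -0.24 and Tsr2 at -0.22. In I/R + rapamycin over sham, Bysl, a small-subunit factor, was at -0.41 with a DESeq2 adjusted p of 0.0195, Gnl3 at 0.32, Abt1 at 0.40 and the cytidine acetyltransferase Nat10 at -0.27. None of these 10 genes passed the edgeR test.

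Subunits of the other RNA polymerases gave a frame for the polymerase I genes. The 11 listed subunits of RNA polymerase II had a median of 0.24 in I/R + rapamycin over I/R and -0.16 in I/R over sham. Over FPKM-table genes these medians were 0.03 and -0.01. The 10 listed subunits of RNA polymerase III had medians of 0.01 and -0.01, and DESeq2 called 1 of them, lower in I/R + rapamycin than in I/R. The 8 polymerase I subunits, at 0.20 and -0.09, lay between these lists, and no test of a difference between lists was made. The 70 cytosolic ribosomal protein genes, the products that assembly factors bind, had medians of 0.27, -0.33 and -0.05 in I/R + rapamycin over I/R, I/R over sham and I/R + rapamycin over sham, with 69, 0 and 18 above 0. None passed the edgeR test. Ribosomal protein transcripts are known to be short, and the part of length in these values was not tested. Nor was it tested for the subunits of RNA polymerases II and III. DESeq2 called 1, 3 and 0 of these 70 genes in the same comparisons, where it called 4.08%, 1.38% and 3.31% of all genes. At an unadjusted p under 0.05, 27 were higher and 0 lower in I/R + rapamycin than in I/R, against 9.82% and 9.74% of FPKM-table genes. In I/R against sham 0 were higher and 41 lower, against 4.99% and 5.64%. In I/R + rapamycin against sham 2 were higher and 2 lower, against 7.16% and 7.91%.

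None of 14 regulators of ribosome assembly on the mTORC1 and MYC side passed the edgeR test, and DESeq2 called 0. At an unadjusted p under 0.05, 2 were higher and 4 lower in I/R + rapamycin against I/R, 1 was higher in I/R against sham, and 1 was higher and 2 were lower in I/R + rapamycin against sham. In either direction 19.6%, 10.6% and 15.1% of FPKM-table genes passed that level in these comparisons. The smallest p in both comparisons with I/R + rapamycin was that of Larp1, which binds ribosomal protein transcripts downstream of mTORC1. It had 49.4, 53.1 and 57.8 CPM in I/R + rapamycin, 66.1, 67.9 and 68.3 CPM in I/R and 66.5, 59.3 and 79.4 CPM in sham, with no overlap of I/R + rapamycin with either group. On the log2 scale this gave -0.34 over I/R (SE 0.11, adjusted p = 0.191) and -0.36 over sham (SE 0.11, adjusted p = 0.204). Myc itself had 15.2, 14.0 and 16.0 CPM in I/R + rapamycin, 16.1, 20.9 and 24.3 CPM in I/R and 26.4, 22.6 and 16.6 CPM in sham. Every I/R + rapamycin library lay below every library of the other groups. The log2 fold change was -0.44 (SE 0.19, adjusted p = 0.280) over I/R and -0.54 (SE 0.19, adjusted p = 0.248) over sham. Mtor, the target kinase, had 64.6 and 67.3 CPM in I/R + rapamycin 2 and 3 and less in I/R + rapamycin 1, 76.5, 76.0 and 69.2 CPM in I/R and 67.9, 58.7 and 72.4 CPM in sham, and its log2 change over I/R was -0.21 (SE 0.095, adjusted p = 0.311). Maf1, a repressor of RNA polymerase III that mTORC1 holds in check, had 94.7, 93.3 and 88.4 CPM in I/R + rapamycin, 86.1, 82.3 and 74.7 CPM in I/R and 86.4, 86.2 and 81.5 CPM in sham, and its log2 change over I/R was 0.18 (SE 0.079, adjusted p = 0.285).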

How the data were processed

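The authors deposited whole-number read counts for 30454 gene IDs in each of 9 libraries, and a table of FPKM values (so named in the file headers) that lists 11235 genes, each reaching 1 FPKM in at least 8 libraries. Counts of the 48 members were identical in both tables. Reads were handled with cutadapt, HISAT2 and StringTie on Rnor_6.0, and DESeq2 was used, per the submitters' processing notes. How reads were counted, on which strand and against which annotation is not given in the sources used here, so reads of overlapping or antisense genes could not be told apart.

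Counts were tested in R 4.3.3 with edgeR 4.0.16 (TMM, default low-count filter, robust quasi-likelihood test, all 9 libraries in one fit, no covariate), with p adjusted over 17335 genes by the Benjamini-Hochberg method and called under 0.05. CPM use TMM-scaled library sizes. The test was tested on simulated data. Alternatives were DESeq2 1.42.0, other size factors and filters, the 6 libraries compared, a replicate block, limma 3.58.1 on log2(FPKM + 1) and log2(FPKM + 0.1), removal of each library's length trend by offsets (loess, span 0.5), and libraries left out. Chi-square per degree of freedom between libraries of a group was 35.4 to 140, so none was a copy.

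The members, lists and tests were chosen with earlier results of these data known. Values per library are given for the 6 members with the smallest p in each comparison and for 13 fixed genes, and other pathway genes named are the 4 with the smallest p. Larp1, Rrp1, Nol7 and Utp20, and the members named only for their level or for groups without overlap, were named after their values were seen.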

Additional observations from a re-analysis of the deposited data

How the results depend on the processing

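No member passed the threshold in any edgeR or limma fit, at an edgeR adjusted p under 0.1, or without any single library. DESeq2 called 1 member for I/R + rapamycin over I/R, 1 for I/R + rapamycin over sham and 0 for I/R over sham, and 1 other pathway gene for each of the first 2. The median of the members kept its sign under every alternative for I/R + rapamycin over I/R and for I/R over sham. With each library left out in turn it was 0.042 to 0.129 for I/R + rapamycin over I/R, -0.21 to -0.11 for I/R over sham and -0.10 to 0.013 for I/R + rapamycin over sham. Without I/R + rapamycin 1, I/R 1 and sham 2 together, a choice made after seeing the data, it was 0.016 with 26 members above 0 for I/R + rapamycin over I/R and -0.050 with 19 above 0 for I/R over sham. Members with an unadjusted p under 0.05, 10 in either comparison, numbered 4 and 2 in that fit. They numbered 5 for I/R over sham with the 6 libraries compared and 4 without I/R 1 and sham 3. For I/R + rapamycin over I/R they numbered 6 with limma on log2(FPKM + 0.1) and 5 with the length trend removed. With each library left out they numbered 6 to 11 for I/R + rapamycin over I/R, 3 to 9 for I/R over sham and 1 to 4 for I/R + rapamycin over sham.

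Replicate numbers gave no consistent sign of pairing: deviations of same-numbered libraries correlated at -0.401 to 0.274, with 2 of 9 pairs over 0.1. Differently numbered libraries ran from -0.163 to 0.398. With so few libraries in a group, these values cannot show that the samples were unpaired. With the replicate block 0 members were called in each comparison, and the median was 0.113 for I/R + rapamycin over I/R and -0.153 for I/R over sham. Of 840 alternative values for 40 single-gene results, 827 kept direction and call, 2 became calls (DESeq2: Rrp15 at 0.611 and Nol4l at -0.541), and 11 changed sign. Without the 3 libraries together, Fbl was at 0.016, Nop58 at 0.009 and Polr1c at 0.132 for I/R over sham, and Fbl at -0.088 for I/R + rapamycin over I/R. With the length trend removed, Fbl came to 0.000, Gar1 to -0.032 and Nop10 to -0.021 for I/R + rapamycin over I/R. For I/R over sham, with each library left out, Polr1b ran from -0.286 to 0.039 and Polr1c from -0.237 to 0.019, and Polr1c was at 0.049 without I/R 1 and sham 3. The causes were not tested. Members had at least 178 reads in every library, and the median SE of a member's log2 fold change was 0.13.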
